A study of Mus musculus with 9 samples.

Results

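The proteasome is the large protease that degrades proteins marked with ubiquitin. Its genes were followed here in a mouse B-cell lymphoma after 2 h of BET bromodomain inhibition. Members were chosen by gene symbol, as every Psma to Psmg symbol followed by a number in the GENCODE M21 annotation, without pseudogenes named -ps, and with a mean of at least 1 CPM (counts scaled to the total gene counts of the library) over 9 libraries. Of 43629 genes in the table, 12118 reached that mean, 50 matched the symbols and 48 did both. One of the 48, Psmc3ip, codes for a meiotic recombination factor and is not a subunit, so 47 belong to the proteasome by function. The 2 genes under the threshold were Psmb11, the thymus-specific catalytic subunit, at a mean of 0.152 CPM, and Psma8, the testis-specific alpha subunit, at 0.0281 CPM. The nearest member inside it was Psmf1, at 12.8 CPM. Of the 4 genes named -ps, Psmb6-ps2 was the highest, at 1.24 CPM. All 48 members passed the filter on low counts and were tested.

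The cells were Eµ-Myc lymphoma cells, clone 4242, a line grown from mice in which an immunoglobulin heavy chain enhancer drives a Myc transgene in B-lineage cells. Every group was the same clone in culture, given JQ1 at 1 µM, RG6146 at 2.5 µM or the DMSO solvent for 2 h, in 3 libraries per group that the labels call biological triplicates. JQ1 and RG6146 block the bromodomains with which BET proteins bind acetylated chromatin, and the study compared each with the solvent. Libraries were 3′ mRNA tags, where a transcript yields a single read close to its poly(A) tail, so levels can be set side by side between genes without a length correction. Because all groups are 1 clone, the p-values measure the spread between cultures of that clone.

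Gene counts lay between 3964732 and 5031717 in JQ1 libraries, between 3947240 and 4609612 in RG6146 libraries and between 3410161 and 5003725 in DMSO libraries. B cell markers (10 genes) summed to 354 to 376 CPM in JQ1 libraries, 371 to 422 CPM in RG6146 libraries and 651 to 761 CPM in DMSO libraries. Myeloid markers (12 genes) summed to 80.3, 280 and 57.3 CPM in JQ1 replicates 1 to 3, to 86.6, 127 and 114 CPM in RG6146 replicates 1 to 3, and to 161, 765 and 355 CPM in DMSO replicates 1 to 3. Replicate 2 therefore stood highest in every group. Markers of T and NK cells stayed between 2.77 and 12.3 CPM and those of erythroid cells between 3.53 and 19.2 CPM over the 9 libraries. Stromal and endothelial markers lay between 98.4 and 143 CPM. Nearly all of this came from Vim, at 90.1 to 108 CPM, and Pecam1, at 4.79 to 33.7 CPM. No marker in these lists was at 0 in every library. Transcripts of the 13 mitochondrially encoded protein genes summed to 7244 CPM in JQ1 replicate 1 and to 11593 to 15596 CPM in the other 8 libraries. The low sum was uneven over these genes. In JQ1 replicates 1 to 3 mt-Co3 had 483, 2735 and 2716 CPM, while mt-Cytb had 1136, 1316 and 1290 CPM. In replicate 1 mt-Co1, mt-Co2, mt-Atp6 and mt-Atp8 were low too, and the remaining genes lay closer to replicates 2 and 3. In bulk RNA, fewer cells of a type and less RNA per cell cannot be told apart.

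The 26S proteasome consists of a 20S core, a barrel of alpha and beta subunits that holds the protease sites, and a 19S cap, whose ATPases unfold substrates and whose non-ATPase subunits bind and deubiquitinate them. Some beta subunits carry the protease sites, and in lymphoid cells they can be replaced by the immunoproteasome subunits Psmb8, Psmb9 and Psmb10, which shape peptides for MHC class I. The transcription factor NRF1, encoded by Nfe2l1, is known to raise the genes of the whole complex together when protease activity falls.

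Most proteasome transcripts showed no called difference after 2 h of either compound, and the fold change of those that did was below 1.5. With JQ1, 6 of 48 members were higher than in DMSO and none (0) was lower, and with RG6146 4 were higher and 2 lower (edgeR quasi-likelihood test, Benjamini-Hochberg adjusted p below 0.05 over 11002 genes). That is 12.5% of members in each comparison, below the share of all tested genes, which was 28.9% for JQ1 against DMSO and 26% for RG6146 against DMSO. The fold change passed 1.5 in 0 of 48 members, against 2572 of all tested genes for JQ1 and 2491 for RG6146. The largest among members was 1.32 for JQ1 and 1.37 for RG6146, counted in either direction. Without JQ1 replicate 1, which had the low sum of mitochondrial transcripts, 4 members were called higher for JQ1. Without RG6146 replicate 2, 1 was higher and 2 were lower for RG6146. With DMSO replicate 2 and JQ1 replicate 2 both left out, 7 were higher and 1 lower for JQ1, and 4 were higher and 2 lower for RG6146.

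Complete separation of groups was counted as well. All 3 JQ1 libraries lay above all 3 DMSO libraries for 10 members and below them for 3, against 20.6% and 22% of all tested genes, 42.6% together. For RG6146 the counts were 6 above and 2 below DMSO, against 20.1% and 20.9% of all tested genes, 40.9% together.

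The median log2 fold change of the members was 0.05 for JQ1 against DMSO and 0.02 for RG6146 against DMSO, beside medians of 0.00466 and 0.00861 over all tested genes. The interquartile range ran from -0.07 to 0.12 over members and from -0.32 to 0.26 over all genes for JQ1. For RG6146 it ran from -0.05 to 0.12 over members and from -0.30 to 0.25 over all genes. Members are well covered, with 38 to 3151 counts per gene and library, and their 95% intervals reached a median of 0.195 to either side, against 0.351 over all genes. The interval of 44 of 48 members lay within a 1.5-fold change in each comparison with DMSO. The lowest bound was -0.75 in each, for Psmf1 with JQ1 and for Psmb10 with RG6146.

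**Figure D1:**
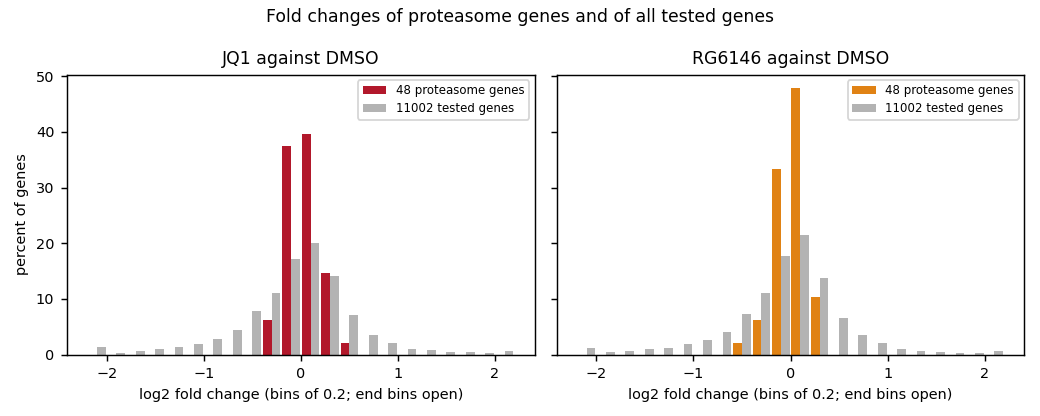
Distribution of log2 fold changes against DMSO (x axis, bins of 0.2) as percent of genes (y axis), for the 48 proteasome genes (coloured) and all 11002 tested genes (grey), for JQ1 (left) and RG6146 (right). Proteasome genes occupy the centre, and none passes 1.5-fold, while the grey bars extend past 2 on the log2 scale.

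How libraries are scaled bears on the direction of such small changes. TMM factors were 0.9475 to 1.005 in treated libraries and 1.036 to 1.07 in DMSO libraries. With TMM, the summed level of the members was 7429 ± 180 CPM in JQ1 libraries, 7289 ± 55.4 CPM in RG6146 libraries and 6967 ± 20.1 CPM in DMSO libraries (SD, n = 3 each). Without it the order turned round, at 7136 CPM with JQ1, 7125 CPM with RG6146 and 7338 CPM in DMSO. As plain shares of gene counts, members took 0.706% to 0.719% in JQ1 libraries, 0.701% to 0.730% in RG6146 libraries and 0.720% to 0.744% in DMSO libraries. Scaling by library size alone moved the median of all genes to -0.129 for JQ1 and -0.0989 for RG6146. The members' medians became -0.0808 and -0.0924, so relative to all genes they stayed slightly above. On that scale 2 members were higher and 6 lower with JQ1, and 0 higher and 2 lower with RG6146, in place of 6 and 0, and 4 and 2. The 6 lower with JQ1 were Psmb8, Psmb10, Psmd7, Psmd12, Psme1 and Psmf1, and the 2 lower with RG6146 were Psmb8 and Psmb10. With scaling to the ERCC spike-ins 0 of 48 members were called for either compound. The values themselves moved little there, with Psmb3 at 0.37 ± 0.23 for JQ1 against DMSO (SE), but the standard errors grew. With a replicate block added to this scaling, the SE of Psmb4 for JQ1 went from 0.233 to 0.101. In that fit 4 members were called for each compound. The shares of all tested genes called belong to the TMM fit and are not given for these other scalings. Whether the counts here moved more than those of all genes is therefore not shown.

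**Figure D2:**
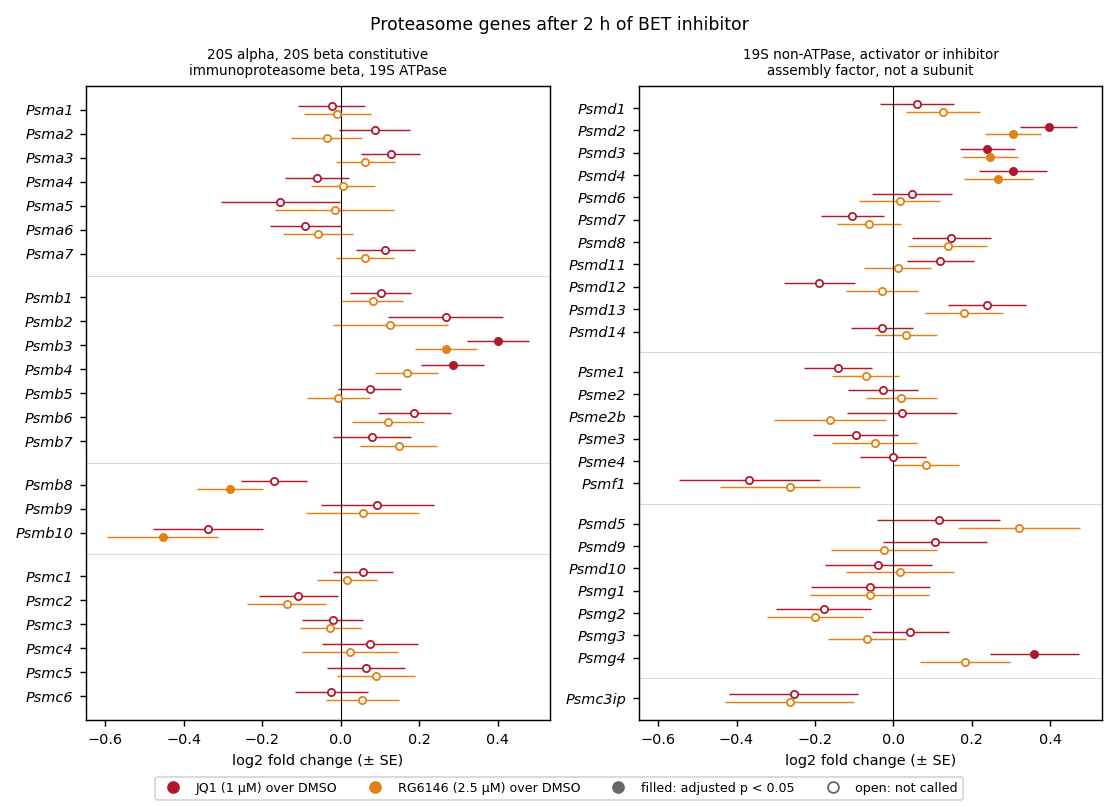
Log2 fold change against DMSO (x axis, ± SE, TMM scaling) of each of the 48 genes (rows), by class, for JQ1 (red) and RG6146 (orange), with filled points at adjusted p below 0.05. Filled points lie right of 0 in the constitutive beta, non-ATPase and assembly rows and left of 0 at Psmb8 and Psmb10 for RG6146.

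Among the 7 alpha subunits, which form the outer rings of the core, none was called (0 of 7) in either comparison with DMSO. No unadjusted p of the 7 was below 0.05 (0 of 7), while 28.9% of all tested genes were called for JQ1 and 26% for RG6146. The median log2 fold change of the alpha subunits was -0.02 for JQ1 and -0.01 for RG6146. Psma7 was the most abundant of all 48 members. It stood at 639.7, 589.8 and 584.3 CPM in JQ1 libraries, at 587.4, 629.3 and 532.3 CPM in RG6146 libraries and at 592.6, 544.7 and 539.2 CPM in DMSO libraries, so the groups overlapped. Psmf1, the least abundant, averaged 11.4 CPM with JQ1, 12.3 CPM with RG6146 and 14.7 CPM in DMSO, so the members span a 52.9-fold, a 47.4-fold and a 38.1-fold range of transcript level in these groups. The spread between replicates was narrow, with a median coefficient of variation over the members of 5.67% in JQ1, 6.48% in RG6146 and 7.95% in DMSO libraries.

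**Figure D3:**
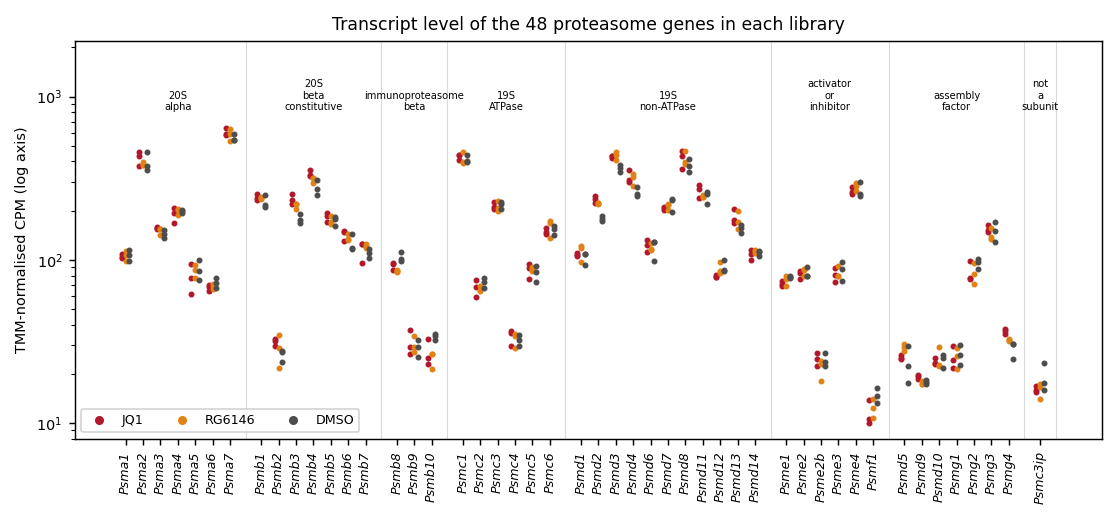
TMM-normalised CPM (y axis, log scale) of each of the 48 genes (x axis, by class) in every library, with JQ1, RG6146 and DMSO points side by side. Levels differ far more between genes, with Psma7 at the top and Psmf1 at the bottom, than between treatments of 1 gene.

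All 7 constitutive beta subunits had a log2 fold change above 0 with JQ1, with a median of 0.19, and 6 of 7 did so with RG6146, with a median of 0.13. This direction depends on the scaling: by library size alone Psmb5 (-0.06) and Psmb7 (-0.05) lay below 0 for JQ1, and Psmb5 (-0.12) for RG6146. Of the 7, 2 passed the test for JQ1, Psmb3 and Psmb4, and 1 for RG6146, Psmb3, where 13.6% and 12.5% of all tested genes were called higher. Both are structural subunits of the beta ring without a protease site. Library size scaling kept only Psmb3 among them, for JQ1.

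Psmb3 (ENSMUSG00000069744, mm10 chr11:97703399-97713500) had 233.6, 252.3 and 220.1 CPM in JQ1 libraries, 205.9, 219.4 and 219 CPM in RG6146 libraries and 168.5, 176.3 and 190.1 CPM in DMSO libraries. Every treated library stood above every DMSO library. The log2 fold change was 0.40 ± 0.08 for JQ1 (SE, edgeR adjusted p = 0.000872) and 0.27 ± 0.08 for RG6146 (edgeR adjusted p = 0.0167). The JQ1 call held with each of the 9 libraries left out. The RG6146 call was lost without RG6146 replicate 2 (adjusted p = 0.061), DMSO replicate 1 (adjusted p = 0.0703) or DMSO replicate 2 (adjusted p = 0.0558). At its transcript end 14.6% of 75-base words also occur in other annotated genes.

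Psmb4 (ENSMUSG00000005779, mm10 chr3:94884093-94886961) had 355.2, 323.9 and 331 CPM in JQ1 libraries, 316.5, 296.8 and 318.3 CPM in RG6146 libraries and 250.7, 271.5 and 306.9 CPM in DMSO libraries. The JQ1 and DMSO groups did not overlap, while RG6146 replicate 2 lay below DMSO replicate 3. Against DMSO its log2 fold change was 0.29 ± 0.08 for JQ1 (SE, edgeR adjusted p = 0.0126) and 0.17 ± 0.08 for RG6146 (edgeR adjusted p = 0.138). Without JQ1 replicate 1 or DMSO replicate 1 the JQ1 value missed the threshold, at adjusted p = 0.0643 and 0.069. Without DMSO replicate 3 the RG6146 value passed it, at 0.25 on the log2 scale with adjusted p = 0.038.

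The 3 constitutive protease subunits were not called with either compound. Psmb5, the chymotrypsin-like subunit, averaged 183 ± 11.6 CPM in JQ1, 173 ± 9.84 CPM in RG6146 and 174 ± 10.9 CPM in DMSO libraries (SD, n = 3 each). Psmb6, the caspase-like subunit, averaged 143 ± 10.2 CPM in JQ1, 136 ± 6.55 CPM in RG6146 and 125 ± 15.3 CPM in DMSO libraries. The JQ1 value of Psmb6 passed the threshold without DMSO replicate 3, at 0.29 on the log2 scale with edgeR adjusted p = 0.028. Psmb7, the trypsin-like subunit, averaged 116 ± 17.2 CPM in JQ1, 121 ± 3.87 CPM in RG6146 and 109 ± 6.76 CPM in DMSO libraries. Of the 75-base words at the transcript end of Psmb7, 80.1% also occur in its neighbour Nek6, and for Psmb5 34.5% also occur in Gm3375, so their counts are less certain.

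Of the 3 immunoproteasome subunits, 2 were lower with RG6146 and none was called with JQ1 (0 of 3), where 13.5% of all tested genes were called lower for RG6146 and 15.4% for JQ1. Psmb8 (ENSMUSG00000024338, mm10 chr17:34197721-34201454) is the inducible counterpart of Psmb5. It had 95.75, 94.49 and 86.8 CPM in JQ1 libraries, 85.51, 86.54 and 84.28 CPM in RG6146 libraries and 101.6, 98.37 and 112 CPM in DMSO libraries. All treated libraries lay below all DMSO libraries. The log2 fold change was -0.17 ± 0.08 for JQ1 (SE, edgeR adjusted p = 0.138) and -0.28 ± 0.08 for RG6146 (edgeR adjusted p = 0.0176). The RG6146 call was lost without RG6146 replicate 1 (adjusted p = 0.0511) or DMSO replicate 3 (adjusted p = 0.0873), and in DESeq2 (adjusted p = 0.0582). With library size scaling it was called lower for both compounds, with adjusted p = 0.0126 for JQ1 and 0.00251 for RG6146.

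Psmb10 (ENSMUSG00000031897, mm10 chr8:105935735-105938444), the counterpart of Psmb7, had 22.94, 32.84 and 24.84 CPM in JQ1 libraries, 21.43, 26.57 and 26.35 CPM in RG6146 libraries and 34.23, 35.25 and 32.37 CPM in DMSO libraries. All 3 RG6146 libraries and 2 of 3 JQ1 libraries lay below all DMSO libraries, and the exception was JQ1 replicate 2. Relative to DMSO it had a log2 fold change of -0.34 ± 0.14 for JQ1 (SE, edgeR adjusted p = 0.0806) and -0.45 ± 0.14 for RG6146 (edgeR adjusted p = 0.0234). Without JQ1 replicate 2 the JQ1 value became -0.51 with adjusted p = 0.0127. The RG6146 call was lost without RG6146 replicate 1 (adjusted p = 0.117), DMSO replicate 1 (adjusted p = 0.055) or DMSO replicate 2 (adjusted p = 0.0697), and in DESeq2 (adjusted p = 0.0936). Psmb9 (ENSMUSG00000096727), the counterpart of Psmb6, averaged 30.9 ± 5.37 CPM in JQ1, 30.0 ± 3.62 CPM in RG6146 and 28.9 ± 3.51 CPM in DMSO libraries (SD, n = 3 each) and was not called.

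Myeloid cells also express the immunoproteasome, and the summed myeloid markers were higher in DMSO libraries (161 to 765 CPM) than in RG6146 libraries (86.6 to 127 CPM). JQ1 libraries held 57.3 to 280 CPM. S100a8, S100a9 and Mpo carried most of these sums in DMSO libraries. Of 8 myeloid markers tested, none was called lower (0 of 8) and 1, Csf1r, was higher, at 0.59 for JQ1 (edgeR adjusted p = 0.00714) and 0.48 for RG6146 (edgeR adjusted p = 0.025). The other 7 lay below 0 for each compound, and the median log2 fold change of the 8 was -1.17 for JQ1 and -1.81 for RG6146. Their 95% intervals were wide, reaching a median of 2.42 to either side for JQ1 and 2.50 for RG6146. Of all tested genes, 15.4% were called lower and 13.6% higher for JQ1, and 13.5% and 12.5% for RG6146. A further fit left out DMSO replicate 2 and JQ1 replicate 2 and kept RG6146 replicate 2. The RG6146 values were then -0.32 for Psmb8 (edgeR adjusted p = 0.0211) and -0.43 for Psmb10 (edgeR adjusted p = 0.0404). For JQ1 Psmb10 was -0.48 (edgeR adjusted p = 0.0382). The part of the remaining myeloid transcripts in these values was not tested. Each of Psmb8 and Psmb10 overlaps a gene on the opposite strand at its 3′ end, Gm20496 and Gm16156, and reads of such pairs may not be separated here.

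A ratio of 2 genes within a library is free of scaling between libraries. It still carries the uncertainty in counts given above for Psmb5, Psmb7, Psmb8 and Psmb10. The ratio of Psmb8 to Psmb5 counts was 0.518, 0.553 and 0.447 in JQ1 libraries, 0.503, 0.522 and 0.457 in RG6146 libraries and 0.627, 0.554 and 0.612 in DMSO libraries. The treated values lay below the DMSO values, with JQ1 replicate 2 next to DMSO replicate 2. The ratio of Psmb10 to Psmb7 was 0.240, 0.261 and 0.198 in JQ1 libraries, 0.172, 0.220 and 0.225 in RG6146 libraries and 0.295, 0.344 and 0.295 in DMSO libraries, again with no overlap. That of Psmb9 to Psmb6 averaged 0.217 ± 0.035 in JQ1, 0.220 ± 0.016 in RG6146 and 0.234 ± 0.052 in DMSO libraries (SD, n = 3 each), and the groups overlapped.

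The 6 ATPases of the 19S cap, Psmc1 to Psmc6, form the ring that unfolds substrates and feeds them into the core. None was called (0 of 6) in either comparison, beside 28.9% of all tested genes for JQ1 and 26% for RG6146. The median log2 fold change of the 6 was 0.02 for both compounds. The summed level of the ring was 939.9 to 1003 CPM in JQ1 libraries, 953 to 991 CPM in RG6146 libraries and 945 to 1002 CPM in DMSO libraries.

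Of 11 non-ATPase subunits of the cap, 3 were higher with each compound, Psmd2, Psmd3 and Psmd4, and none was lower (0 of 11). That is 27.3% of the class, with 13.6% of all tested genes called higher for JQ1 and 12.5% for RG6146. With library size scaling 1 of the 3, Psmd2, stayed called for JQ1 and none (0) for RG6146. The class median was 0.12 for JQ1 and 0.13 for RG6146 on the log2 scale. Psmd2 (ENSMUSG00000006998, mm10 chr16:20651652-20663414) codes for the large scaffold subunit that docks the carriers of ubiquitinated substrates. It had 235.3, 224.2 and 247.1 CPM in JQ1 libraries, 221.4, 219.4 and 222.4 CPM in RG6146 libraries and 178.5, 185.7 and 172.9 CPM in DMSO libraries. The groups did not overlap, and even the lowest treated library stood above the highest DMSO library. The log2 fold change was 0.40 ± 0.07 for JQ1 (SE, edgeR adjusted p = 0.000466) and 0.30 ± 0.07 for RG6146 (edgeR adjusted p = 0.00427). Both calls held with each of the 9 libraries left out, and the JQ1 call also with library size scaling, while the RG6146 call did not (adjusted p = 0.0509).

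Psmd3 (ENSMUSG00000017221, mm10 chr11:98682554-98695979), a structural subunit of the lid, had 433.7, 435.3 and 421.7 CPM in JQ1 libraries, 406.3, 435.5 and 455 CPM in RG6146 libraries and 367.3, 382.4 and 343.6 CPM in DMSO libraries. Treated libraries were all above DMSO libraries. The difference from DMSO was a log2 fold change of 0.24 ± 0.07 for JQ1 (SE, edgeR adjusted p = 0.0163) and 0.25 ± 0.07 for RG6146 (edgeR adjusted p = 0.0148). Without DMSO replicate 3 both calls were lost, at adjusted p = 0.0721 for JQ1 and 0.07 for RG6146. The RG6146 call was also lost without RG6146 replicate 2 (adjusted p = 0.0522) or replicate 3 (adjusted p = 0.0617). By library size alone neither was called, at 0.11 for JQ1 (adjusted p = 0.273) and 0.14 for RG6146 (adjusted p = 0.157).

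Psmd4 (ENSMUSG00000005625, mm10 chr3:95032694-95042614), a ubiquitin receptor of the cap, had 306.2, 356.3 and 300.7 CPM in JQ1 libraries, 281.8, 320.1 and 336.5 CPM in RG6146 libraries and 246.8, 278.9 and 253.9 CPM in DMSO libraries. RG6146 replicate 1 came closest to DMSO, just above DMSO replicate 2. The log2 fold change was 0.31 ± 0.09 for JQ1 (SE, edgeR adjusted p = 0.0136) and 0.27 ± 0.09 for RG6146 (edgeR adjusted p = 0.03). The JQ1 call was lost without JQ1 replicate 2 (adjusted p = 0.068) or DMSO replicate 1 (adjusted p = 0.056). The RG6146 call was lost without RG6146 replicate 2 or 3, DMSO replicate 1 or DMSO replicate 3, with adjusted p between 0.0868 and 0.122. By library size alone neither was called, at 0.17 for JQ1 (adjusted p = 0.145) and 0.16 for RG6146 (adjusted p = 0.193). Of the 8 other subunits of this class, the next in size for JQ1 was Psmd13, at 0.24 ± 0.10 (SE, edgeR adjusted p = 0.0808).

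**Figure D4:**
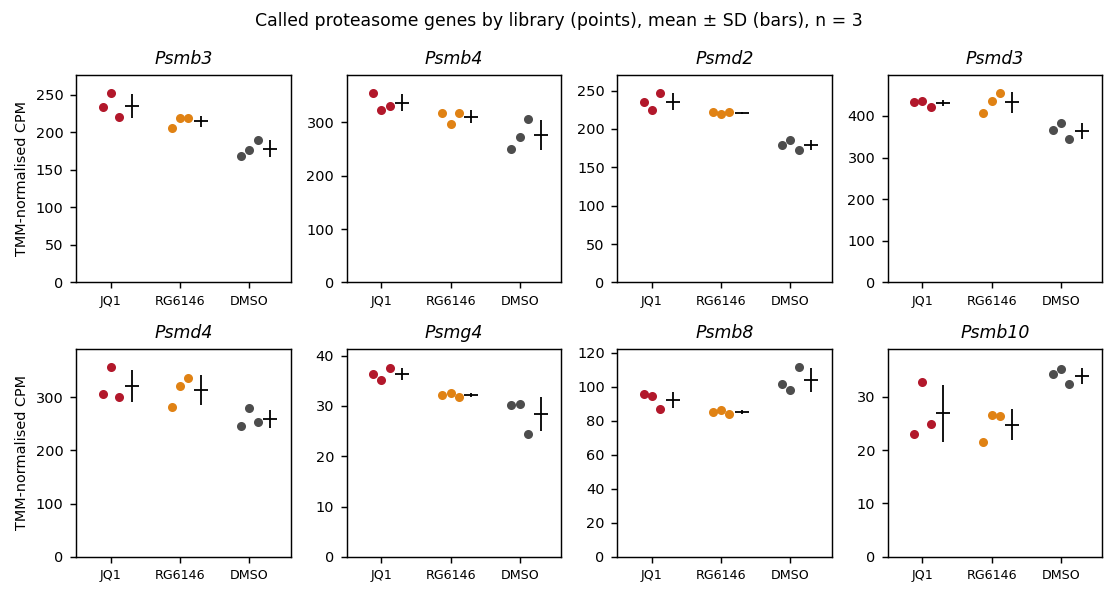
TMM-normalised CPM (y axis, from 0) of the 8 called proteasome genes in each library (points) with mean ± SD beside them, for JQ1, RG6146 and DMSO (x axis, n = 3 each). Psmb3, Psmd2, Psmd3, Psmd4 and Psmg4 have every treated point above every DMSO point, and Psmb8 has every treated point below.

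Among the activators and the inhibitor of the core, 6 genes in all, there was no call in either comparison (0 of 6). The share called among all tested genes was 28.9% for JQ1 and 26% for RG6146. Psme1 and Psme2 form the interferon-inducible cap that opens the core. Psme1 averaged 71.2 ± 2.63 CPM in JQ1, 74.7 ± 5.09 CPM in RG6146 and 78.4 ± 1.39 CPM in DMSO libraries (SD, n = 3 each), and Psme2 averaged 81.5 ± 4.88, 84.3 ± 4.39 and 83.1 ± 6.54 CPM in the same order. Psme1 was called lower for JQ1 only with library size scaling (edgeR adjusted p = 0.0255). Psme2 and Psme2b share 65.0% of the words at their transcript ends, so their counts are uncertain. Psmf1, which binds and inhibits the core in vitro, had 10.52, 13.8 and 9.935 CPM in JQ1 libraries, 12.31, 13.92 and 10.68 CPM in RG6146 libraries and 16.36, 14.5 and 13.19 CPM in DMSO libraries. Its groups overlapped, with a log2 fold change of -0.37 ± 0.18 for JQ1 (SE, edgeR adjusted p = 0.14) and -0.26 ± 0.18 for RG6146 (edgeR adjusted p = 0.308).

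Of the 7 assembly factors, 1 was called, higher for JQ1. That is 14.3% of the class, near the 13.6% of all tested genes called higher for JQ1. Psmg4 (ENSMUSG00000071451, mm10 chr13:34162964-34178173), a chaperone of alpha ring assembly, had 36.41, 35.22 and 37.65 CPM in JQ1 libraries, 32.15, 32.64 and 31.81 CPM in RG6146 libraries and 30.28, 30.42 and 24.45 CPM in DMSO libraries. The 3 groups did not overlap, and RG6146 lay in between. On the log2 scale the change was 0.36 ± 0.11 for JQ1 (SE, edgeR adjusted p = 0.0242) and 0.18 ± 0.11 for RG6146 (edgeR adjusted p = 0.27). The JQ1 call was lost without JQ1 replicate 1 (adjusted p = 0.0621), JQ1 replicate 3 (adjusted p = 0.0768) or DMSO replicate 3 (adjusted p = 0.105), and in DESeq2 (adjusted p = 0.141). Psmg1 and Psmg2, which work as a pair at the start of alpha ring assembly, were not called. Psmg1 averaged 25.2 ± 3.97 CPM in JQ1, 25.2 ± 3.60 CPM in RG6146 and 26.2 ± 3.68 CPM in DMSO libraries (SD, n = 3 each). Psmg2 had 76.64 to 98.7 CPM in JQ1, 70.65 to 96 CPM in RG6146 and 87.51 to 101.2 CPM in DMSO libraries. Psmc3ip, the gene that shares the symbol pattern only, was not called, at -0.25 for JQ1 and -0.26 for RG6146 on the log2 scale. All of its end words (100%) also occur in the overlapping gene Mlx, and 69.5% of those of Psmd1 occur in Gm21972.

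Promoter windows are shown for Psmb3, Psmd2 and Psmd4, which were higher with each compound (Psmd3, also higher with each, had no RefSeq window), and for Psmb8 and Psmb10, which were lower with RG6146, to show which of the searched letters each holds. Windows run from 250 bases before to 50 bases after the RefSeq gene start on GRCm38.p6, 5′ to 3′ on the gene's strand. Capitals mark matches, on either strand, to CCAAT (the box bound by NF-Y), CACGTG (the E-box bound by MYC and its partners) or TGACNNNGC (the core of the antioxidant response element).
Psmb3, chr11:97703184-97703483, plus strand: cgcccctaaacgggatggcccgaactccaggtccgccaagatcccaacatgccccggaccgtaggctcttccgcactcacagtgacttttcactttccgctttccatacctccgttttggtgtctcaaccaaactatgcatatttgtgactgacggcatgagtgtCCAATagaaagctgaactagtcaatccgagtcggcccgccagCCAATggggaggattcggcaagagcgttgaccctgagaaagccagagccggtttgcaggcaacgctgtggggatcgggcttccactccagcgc
Psmd2, chr16:20651402-20651701, plus strand: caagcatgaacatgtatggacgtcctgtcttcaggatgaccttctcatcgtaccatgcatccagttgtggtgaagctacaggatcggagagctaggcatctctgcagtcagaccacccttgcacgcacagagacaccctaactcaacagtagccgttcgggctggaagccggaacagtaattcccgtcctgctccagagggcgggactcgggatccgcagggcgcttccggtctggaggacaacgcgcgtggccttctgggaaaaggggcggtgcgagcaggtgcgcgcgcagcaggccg
Psmd4, chr3:95042565-95042864, minus strand: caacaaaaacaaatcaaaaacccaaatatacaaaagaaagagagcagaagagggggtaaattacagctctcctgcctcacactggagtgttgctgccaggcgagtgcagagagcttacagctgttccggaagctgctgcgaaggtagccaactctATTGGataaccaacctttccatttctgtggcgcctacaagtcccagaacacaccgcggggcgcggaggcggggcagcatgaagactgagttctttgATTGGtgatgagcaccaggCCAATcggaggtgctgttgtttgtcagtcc
Psmb8, chr17:34197945-34198244, plus strand: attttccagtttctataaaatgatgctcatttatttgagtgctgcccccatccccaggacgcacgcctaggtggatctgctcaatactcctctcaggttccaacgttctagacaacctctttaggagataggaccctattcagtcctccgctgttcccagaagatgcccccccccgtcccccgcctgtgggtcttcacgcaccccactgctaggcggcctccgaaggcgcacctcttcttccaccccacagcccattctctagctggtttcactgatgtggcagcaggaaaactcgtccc
Psmb10, chr8:105938343-105938642, minus strand: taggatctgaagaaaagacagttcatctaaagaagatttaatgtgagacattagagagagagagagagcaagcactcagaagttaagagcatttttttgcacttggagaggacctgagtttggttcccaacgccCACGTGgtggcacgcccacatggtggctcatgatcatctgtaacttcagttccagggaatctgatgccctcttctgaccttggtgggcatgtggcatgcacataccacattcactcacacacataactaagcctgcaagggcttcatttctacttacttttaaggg

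Psmb3 holds 2 matches to CCAAT and Psmd4 holds 3, Psmb10 holds 1 match to CACGTG, and Psmd2 and Psmb8 hold none of the motifs. RefSeq windows were matched for 41 of 48 members, 44 windows in all. CCAAT occurred in 14 of these 44 windows (31.8%), beside 37.4% of all 32851 promoter windows of the same length. CACGTG occurred in 4 (9.09%), beside 7.15% of all, and TGACNNNGC in 6 (13.6%), beside 12.4% of all. These are descriptions of letters in short windows, and the shares of members lay near those of all promoters.

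Several genes that act on the proteasome from outside had larger fold changes than any of the 48 members. Of 15 genes of the NRF1 and NRF2 route, 12 were tested. With JQ1, 7 were higher and 2 lower, and with RG6146 6 were higher and 2 lower, against 28.9% and 26% of all tested genes called in either direction. The list's median log2 fold change was 0.37 for each compound. The list was drawn up with earlier results of these data known, and counts for the compounds share the DMSO libraries. Higher in both comparisons were Nfe2l1 and Nfe2l2, which encode NRF1 and NRF2, Ddi2, the protease that activates NRF1, Vcp, the ATPase that extracts proteins from the endoplasmic reticulum, the repressor Bach1, and Sqstm1, an autophagy receptor. Syvn1, an endoplasmic reticulum ubiquitin ligase, was called for JQ1 and not for RG6146. The difference between them did not pass the test (log2 fold change of RG6146 over JQ1 -0.13 ± 0.08, SE, edgeR adjusted p = 0.999).

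Ddi2 had 159.3, 176.6 and 168.9 CPM in JQ1 libraries, 170.6, 155.1 and 186.5 CPM in RG6146 libraries and 104.2, 88.42 and 91.58 CPM in DMSO libraries. Its log2 fold change was 0.83 ± 0.09 for JQ1 (SE, edgeR adjusted p = 2.43e-06) and 0.85 ± 0.09 for RG6146 (edgeR adjusted p = 1.97e-06). Nfe2l1 averaged 56.2 ± 4.42 CPM in JQ1, 57.6 ± 10.2 CPM in RG6146 and 43.6 ± 3.81 CPM in DMSO libraries (SD, n = 3 each), a log2 fold change of 0.37 for JQ1 and 0.41 for RG6146. Keap1, which hands NRF2 to a ubiquitin ligase, was lower, at 52.4, 40.22 and 47.84 CPM in JQ1 libraries, 39.91, 35.93 and 40.67 CPM in RG6146 libraries and 82.38, 73.35 and 91.1 CPM in DMSO libraries. Its log2 fold change was -0.81 ± 0.11 for JQ1 (SE, edgeR adjusted p = 3.72e-05) and -1.08 ± 0.11 for RG6146 (edgeR adjusted p = 2.01e-06). Mafg, a small DNA-binding partner of both factors, was also lower, by 0.30 and 0.31 on the log2 scale. With ERCC scaling 3 genes of the list were higher and 1 lower for each compound, among them Ddi2 and Keap1.

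Of 14 further proteasome factors with symbols in the table, 3 were higher and 2 lower with JQ1, and 4 higher and 1 lower with RG6146. That is 35.7% of the list in each comparison, not far from the 28.9% and 26% of all tested genes called, so the count sets nothing apart about the list. Zfand5, which binds the 26S complex and raises its activity, had 93.44, 92.58 and 88.63 CPM in JQ1 libraries, 102.8, 98.18 and 102.2 CPM in RG6146 libraries and 50.4, 53.74 and 53.7 CPM in DMSO libraries. This change, 0.80 ± 0.08 for JQ1 (SE, edgeR adjusted p = 1.34e-06) and 0.94 ± 0.08 for RG6146 (edgeR adjusted p = 2.3e-07), was larger than that of any of the 48 members and was called with ERCC scaling too. Fbxo7, an F-box protein that binds the product of Psmf1, fell to 11.3 ± 2.36 CPM in JQ1 and 12.1 ± 0.919 CPM in RG6146 libraries, against 21.7 ± 3.84 CPM in DMSO libraries (SD, n = 3 each). Ube3c, a ubiquitin ligase that works on the proteasome, and Pithd1 were higher with both compounds. Akirin2, needed for the import of proteasomes into the nucleus, was lower with JQ1 (log2 fold change -0.37, edgeR adjusted p = 0.0297). Uchl5, a deubiquitinase of the cap, was higher with RG6146 (0.24, edgeR adjusted p = 0.0297). Pomp, the maturation factor of the core, was not called, at 0.20 for JQ1 and 0.10 for RG6146.

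Of 11 genes for ubiquitin, its activating enzymes and its carriers, 3 were higher with JQ1 and 1 with RG6146, and none was lower (0 of 11). These shares, 27.3% and 9.09%, lay at or below the 28.9% and 26% of all tested genes called. Uba6, an activating enzyme, was higher with both, at a log2 fold change of 0.55 ± 0.13 for JQ1 (SE, edgeR adjusted p = 0.00387) and 0.57 ± 0.13 for RG6146 (edgeR adjusted p = 0.00325).

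Of 8 tested genes of the interferon and MHC class I partners of the immunoproteasome, 4 were lower with JQ1 and 2 with RG6146, and none was higher (0 of 8), where 15.4% of all tested genes were called lower for JQ1 and 13.5% for RG6146. Irf2, a transcription factor of the interferon system, had 35.56, 37.6 and 39.74 CPM in JQ1 libraries, 33.98, 34.67 and 38.39 CPM in RG6146 libraries and 78.62, 82.45 and 88.23 CPM in DMSO libraries. Erap1, which trims peptides for MHC class I, was lower with both compounds, at -0.65 for JQ1 (edgeR adjusted p = 0.000827) and -0.54 for RG6146 (edgeR adjusted p = 0.00409). The peptide transporter subunit Tap1, whose gene overlaps Psmb9, was lower with JQ1, at -0.55 (edgeR adjusted p = 0.0277). B2m, the invariant chain of MHC class I, was not called, at 0.04 for JQ1 and -0.03 for RG6146. The myeloid marker sums given above move with these groups as well, and their part here was not tested.

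**Figure D5:**
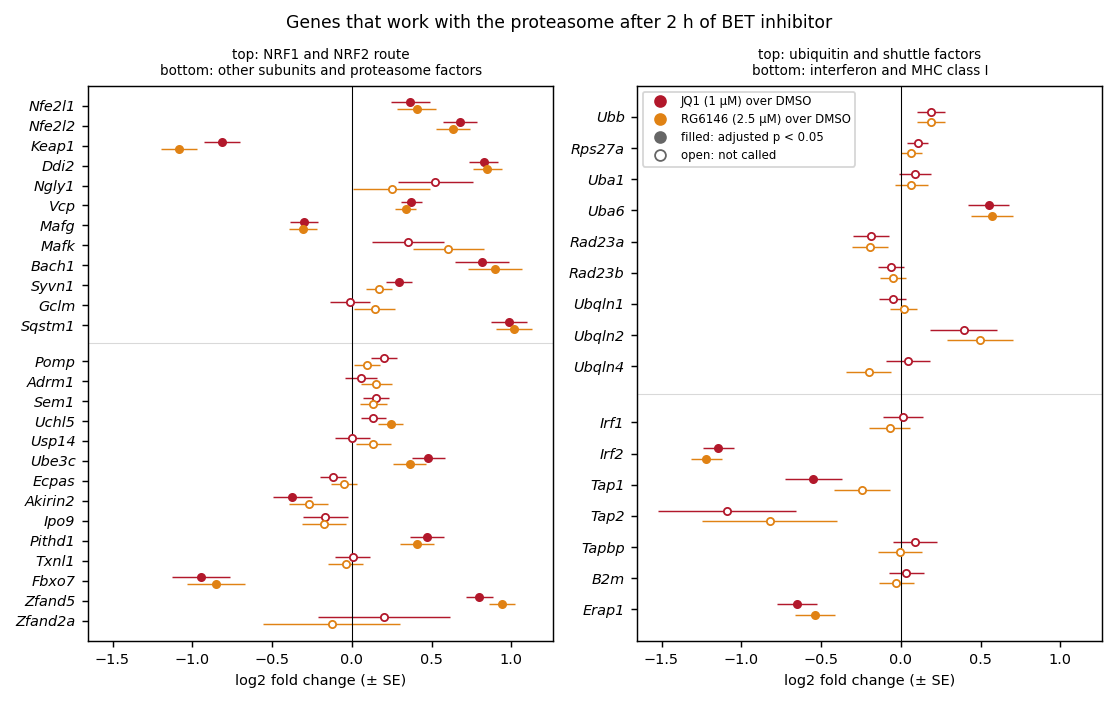
Log2 fold change against DMSO (x axis, ± SE) of tested genes of 4 related lists that are reported here (rows) for JQ1 (red) and RG6146 (orange), with filled points at adjusted p below 0.05. Zfand5, Ddi2 and Sqstm1 lie near 1 on the right, and Keap1, Fbxo7 and Irf2 near -1 on the left.

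RG6146 at 2.5 µM was also set against JQ1 at 1 µM, treatments that differ in dose as well as compound. No member was called (0 of 48) by edgeR or by DESeq2 (0), none had an unadjusted p below 0.05 (0 of 48), and 1 of all tested genes was called (0.00909%). The members' median log2 fold change was -0.02. Their largest fold change was 1.15, counted in either direction. Intervals of all 48 members lay within a 1.5-fold difference, with bounds from -0.48 for Psme2b to 0.53 for Psmd5. For the members called against DMSO, the difference of RG6146 over JQ1 was -0.13 ± 0.08 for Psmb3, -0.12 ± 0.08 for Psmb4, -0.09 ± 0.07 for Psmd2, 0.01 ± 0.07 for Psmd3, -0.04 ± 0.09 for Psmd4, -0.18 ± 0.11 for Psmg4, -0.11 ± 0.08 for Psmb8 and -0.12 ± 0.14 for Psmb10 (SE). In 2 of 48 members all RG6146 libraries lay above all JQ1 libraries, and in 7 of 48 all lay below. For all tested genes these shares were 5.39% and 4.54%, 9.93% together. The share of members that lay below was larger than that of all tested genes, and this count was not tested. Of the related genes, Syvn1, Akirin2, Uchl5 and Tap1 were called against DMSO for 1 compound. Between the compounds edgeR gave each of them an adjusted p = 0.999. The 95% interval for Psmb10 ran from -0.42 to 0.18.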

How the data were processed

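Gene expression was measured in 9 libraries of 3′ mRNA tags from 1 lymphoma clone. The deposited values are raw counts per gene. Per the submitters' processing notes, the authors worked with HISAT2 2.1.0 and the mouse build mm10, counted with featureCounts from Subread, and also used cutadapt 1.7, bcl2fastq 2.17.1.14, FastQC 0.11.5 and limma. For the annotation release, strand setting and reads with several matches, the sources used here give nothing. Libraries were made from 500 ng of RNA and read as 75-base single ends, per the labels' protocols.

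The counts, without the 92 ERCC rows, were tested with edgeR 4.0.16 (R 4.3.3). Genes were kept by filterByExpr (minimum count 10), which left 11002, scaled by TMM and tested with a quasi-likelihood F-test in 1 fit of 9 libraries with group as the only term. Fold changes carry no prior count, and intervals are 95%. Levels of genes are TMM-normalised CPM, and marker sums are CPM without TMM. Alternatives included library size scaling, ERCC scaling, a replicate block, DESeq2 1.42.0, other filters and leaving out libraries. The fit was tested on simulated data. Named genes were the called members, the catalytic subunits and their counterparts, Psme1, Psme2, Psmf1, Psmg1, Psmg2, the most and least abundant member, and up to 4 genes per related list with the smallest p. Other genes of these lists and Psmd13 were named after their values were seen. Members and lists were chosen with earlier results of these data known. Replicates differed by more than sampling noise, at 6.6 to 16.4 in chi-square over its degrees of freedom. Of 17 symbols listed as further proteasome factors 14 were found, 2 of the others being older names. Some genes of the related lists are counted but not reported singly here.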

Additional observations from a re-analysis of the deposited data

How the results depend on the processing

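Counts of called members stayed within 1.5 times the chosen value under the replicate block, DESeq2, both other filters, the fit of 6 libraries and the removal of Gm42418, the gene with the most counts. The genes called could still differ. In DESeq2 Psmb8 and Psmb10, the members lower with RG6146, were not called for it, nor was Psmg4 for JQ1. Counts moved with scaling, and the share of all tested genes called on these other scales is not given here. With ERCC scaling 0 members were called for JQ1 and 0 for RG6146, and with library size scaling 2 for RG6146. The members' median log2 fold change with library size scaling was -0.0808 for JQ1 and -0.0924 for RG6146, and the summed level was 7136 CPM in JQ1, 7125 CPM in RG6146 and 7338 CPM in DMSO libraries. Leaving out single libraries gave 4 to 7 called members for JQ1, 3 to 6 for RG6146 and 0 for RG6146 against JQ1. The lowest count, 3, came without RG6146 replicate 2. Whether replicate numbers pair the samples is not settled here. The correlation of same-numbered libraries lay between -0.0627 and 0.103, but a value over all tested genes can miss structure in a few. Mpo was highest in replicate 2 of every group, at 82.8 CPM with JQ1, 36.9 CPM with RG6146 and 183 CPM in DMSO. ERCC counts, as a share of gene counts, were highest in replicate 1 and lowest in replicate 3 of every group. These shares were 1.39% and 0.968% with JQ1, 1.37% and 0.982% with RG6146, and 1.54% and 1.14% in DMSO. With the replicate block 6 members were called for JQ1 and 6 for RG6146. With ERCC scaling and the block 4 were called for each. The cause of these moves was not tested. Over 34 named genes and 19 settings, 592 of 646 values for JQ1 and 600 of 646 for RG6146 kept their side of the threshold. Of the called values 0 changed sign. Values that were not called could change sign, as those of Psmb5 and Psmb7 did for JQ1 with library size scaling. Members with few counts, such as Psmf1, with at least 38 counts per library, have wide intervals.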
